A study of Homo sapiens with 9 samples.

Results

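The S100 calcium-binding proteins described here are the products of 10 genes, S100A2, S100A3, S100A4, S100A6, S100A10, S100A11, S100A13, S100A14, S100A16 and S100P. They were chosen by symbol, with earlier results of these data known. Each matched 1 Ensembl identifier among the 63657 gene rows of the deposited expression table. RNA was sequenced from MDA-MB-231, an established human line of triple-negative breast cancer cells with mesenchymal features. The shControl group carried a control short hairpin RNA and the shLOXL2 group a hairpin that depletes LOXL2, a lysyl oxidase-like enzyme linked to oxidation of lysine 4 of histone H3. Each group had 2 RNA libraries, and neither the sequence of the hairpins nor the time after infection is given in the sources used here. Levels are in FPKM, which counts sequenced fragments per transcript length and per mapped fragment, so that genes can be compared within a library. The labels do not tell whether the 2 replicates of a group were grown separately, and the p-values then describe the spread of these libraries only, which may be technical.

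S100 proteins are small EF-hand proteins that work mostly as dimers. Calcium binding opens a hydrophobic face on the dimer, which then docks onto targets such as annexins, cytoskeletal motors and the p53 protein. They have no enzyme activity of their own, and several are also released from cells and act on surface receptors. Most of the genes lie in a cluster on chromosome 1 at 1q21.3, whereas S100P lies on chromosome 4. In breast and other carcinomas S100A4 is best known for its link to cell motility and metastasis.

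The starts of 4 genes are shown because they carry the contrast described below. S100A4, S100A3 and S100A2 are successive genes of the cluster on the minus strand. The first and second named rose in shLOXL2 cells while S100A2 had a negative change. S100P had the largest rise of the 10 on the scale tested, a rank that depended on settings given below. Each sequence is the 250 bases before the annotated start, from RefSeq on GRCh38.p14, and reads in the direction of the gene. Capitals mark matches, on either strand, to TGANTCA (the AP-1 motif), TATAAA (the TATA box), CCAAT (the CCAAT box), GGGCGG (the GC box) and CAGGTG (an E2-box).
S100A4, chr1:153545807-153546056, minus strand: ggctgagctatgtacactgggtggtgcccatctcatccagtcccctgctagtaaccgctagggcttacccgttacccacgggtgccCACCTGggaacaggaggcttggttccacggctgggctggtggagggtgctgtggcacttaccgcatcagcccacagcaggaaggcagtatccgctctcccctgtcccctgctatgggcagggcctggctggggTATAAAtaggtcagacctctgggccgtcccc
S100A3, chr1:153549259-153549508, minus strand: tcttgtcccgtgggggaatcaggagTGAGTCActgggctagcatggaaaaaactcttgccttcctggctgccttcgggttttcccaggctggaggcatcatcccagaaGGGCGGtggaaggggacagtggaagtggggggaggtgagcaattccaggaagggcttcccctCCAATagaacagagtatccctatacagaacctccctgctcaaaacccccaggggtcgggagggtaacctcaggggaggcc
S100A2, chr1:153565845-153566094, minus strand: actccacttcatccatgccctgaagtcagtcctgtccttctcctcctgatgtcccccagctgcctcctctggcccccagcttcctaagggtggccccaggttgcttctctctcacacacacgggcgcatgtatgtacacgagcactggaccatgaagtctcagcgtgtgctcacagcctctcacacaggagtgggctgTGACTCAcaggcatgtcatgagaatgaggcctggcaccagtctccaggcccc
S100P, chr4:6693628-6693877, plus strand: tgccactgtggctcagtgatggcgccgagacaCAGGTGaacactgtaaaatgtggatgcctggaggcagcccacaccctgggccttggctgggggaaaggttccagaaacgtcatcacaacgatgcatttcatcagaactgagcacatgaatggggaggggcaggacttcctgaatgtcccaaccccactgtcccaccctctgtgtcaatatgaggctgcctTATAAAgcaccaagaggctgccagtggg

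The TATA box lay 31 to 26 bases before the start of S100A4 and 28 to 23 bases before that of S100P. S100A13, which did not pass the test, also had a match, 29 to 24 bases before 1 of its 3 annotated starts. Over all 35116 RefSeq windows of the same length, 10.7% held TATAAA. The AP-1 motif stood in the window of S100A2, 52 to 46 bases before the start, and in that of S100A3, 225 to 219 bases before it, and in 6.57% of all windows. S100A2 has another annotated start, whose window held an E2-box and no AP-1 motif. All 10 genes matched the RefSeq table, with 14 windows among them. Of these 14 windows, 3 held the TATA box and 2 the AP-1 motif. GC boxes were found for 6 of the 10 genes, E2-boxes for 5 and CCAAT boxes for 3. Of all genes in the table, 46.2%, 20.6% and 37.0% had such a match in any of their windows. The CCAAT box was thus less frequent among the 10 genes than among all genes. The motifs were picked after the expression values were known, and a match describes the letters alone.

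LOXL2, the targeted gene, was listed with 85.5 and 84.5 FPKM for shControl and with 15.2 and 12.1 FPKM for shLOXL2. Of the markers high in mesenchymal-like lines, the filament gene VIM was at 2011 and 2053 FPKM in shControl against 2104 and 2081 in shLOXL2. MSN rose from 229 and 228 to 270 and 272 FPKM (limma adjusted p = 0.0246). CAV1 rose from 245 and 237 to 275 and 282 FPKM (limma adjusted p = 0.0430). CD44 fell from 457 and 447 to 349 and 340 FPKM (limma adjusted p = 0.0172), and EGFR from 37.9 and 36.6 to 32.1 and 30.6 FPKM (limma adjusted p = 0.0497). Of the receptors that define triple-negative tumours, ESR1 and PGR were at no more than 0.0822 FPKM in any library, whereas ERBB2 RNA was present at 26.1 to 29.8 FPKM. The epithelial gene EPCAM fell from 6.85 and 6.69 to 4.52 and 5.07 FPKM (limma adjusted p = 0.0443). CDH1, also epithelial, had the opposite sign, at 0.339 and 0.837 against 1.43 and 1.51 FPKM, without passing (limma adjusted p = 0.148). Of 8 leukocyte markers, 3 reached a mean of 1 FPKM, and their summed level was 6.48 and 5.47 FPKM in shControl against 7.96 and 7.82 FPKM in shLOXL2. Fibroblast markers reached 1 FPKM for 2 of 7 genes and summed to 5.89 and 7.29 against 12.3 and 10.2 FPKM, with COL1A1 rising (limma adjusted p = 0.0287) and COL1A2, DCN and LUM at no more than 0.244 FPKM. Keratinocyte markers reached 1 FPKM for 2 of 7 genes and summed to 10.1 and 9.72 against 9.85 and 9.92 FPKM. Most of it was KRT10, at 9.27 and 8.91 against 8.10 and 8.45 FPKM (limma adjusted p = 0.196). TP63 stood at 0.75 and 0.70 against 1.61 and 1.24 FPKM, without passing (limma adjusted p = 0.140). KRT14 was at no more than 0.226 FPKM, and KRT1, KRT5, DSG3 and LORICRIN were listed at 0. Markers of melanocytes and glia reached 1 FPKM for 3 of 7 genes and summed to 45.8 and 40.2 against 59.7 and 59.1 FPKM, most of it MBP, which rose (limma adjusted p = 0.0239). The part of these marker differences in the S100 results was not tested. Library totals in FPKM were 1244377 and 1221571 for shControl against 1330441 and 1369375 for shLOXL2. The mitochondrial share stood at 20.4 and 18.5% against 22.8 and 22.1%. Totals and mitochondrial share were thus higher in both shLOXL2 libraries, so the scale of the values differed between the groups, in the direction of the S100 rises. Results with FPKM rescaled over genes outside the mitochondrial genome are given below. The number of reads behind a value is unknown.

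S100 RNA was abundant and unequally divided among the 10 genes. S100A6, which encodes calcyclin, had the highest value that the table lists for any of 18787 protein-coding genes in both groups, and ranked 16 among all rows in shControl. This ranking is limited, since the elongation factor gene EEF1A1, active in all cells, is listed at 0. S100A6 made up 75.1 and 75.3% of the summed FPKM of the 10 genes in shControl and 69.5 and 69.2% in shLOXL2. S100A4 ranked 96 among protein-coding genes in shControl and 40 in shLOXL2. In shControl the order was S100A6, S100A4, S100A11, S100A10, S100A13, S100A16, S100A2, S100A3, S100P and S100A14. S100A13 and S100A16 did not differ in shControl beyond the spread of their libraries, and in shLOXL2 S100A16 stood above S100A13. The libraries of each other neighbouring pair in this order did not overlap within a group. The summed FPKM of the 10 genes was 8664 and 8722 in shControl and 10434 and 10513 in shLOXL2, and without S100A6 it was 2161 and 2151 against 3182 and 3239.

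**Figure D1:**
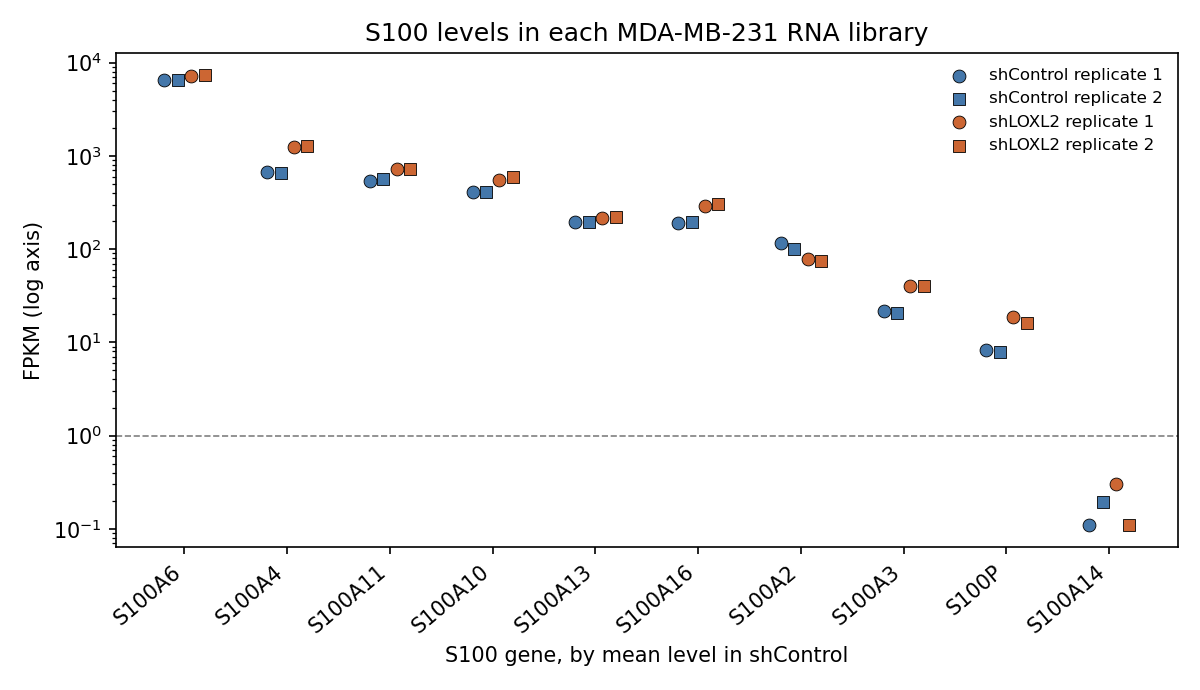
FPKM of the 10 S100 genes (log axis) in each library, with circles for replicate 1, squares for replicate 2, blue for shControl and orange for shLOXL2, and a dashed line at 1 FPKM. S100A6 stands between 6503 and 7274 FPKM, S100A14 is the only one of the 10 below the line, and S100A2 is the only gene above the line whose shLOXL2 points lie below its shControl points.

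Between shLOXL2 and shControl cells, 6 of the 10 S100 genes rose, namely S100P, S100A4, S100A3, S100A16, S100A10 and S100A11. S100A6 and S100A13 had small positive changes that did not pass the threshold, S100A2 had a negative change that did not pass, and S100A14 was too low to test. The test was limma's moderated test on log2(FPKM + 1) over the 16987 genes that averaged 1 FPKM or more, two-sided, with a Benjamini-Hochberg adjusted p below 0.05 taken as a change. Over all genes tested 8.35% rose (1419 genes) and 8.54% fell (1450 genes), against 6 and 0 of the 9 S100 genes tested. Among the 1651 genes that averaged 100 FPKM or more, a class set after seeing the data, 17.4% rose and 9.99% fell. Of the 9 S100 genes tested, S100A2, S100A3 and S100P averaged 92.1, 30.7 and 12.7 FPKM and lie outside this class. S100A4, S100A10, S100A11 and S100A16, which rose, lie in it, as do S100A6 and S100A13, which did not pass. The median log2 change was 0.47 over the 9 S100 genes and -0.0041 over all genes tested. The libraries of the groups did not overlap for 9 of the 9, against 64.6% of all genes tested. Because the 10 genes were chosen with earlier results known, these contrasts describe the set and are no independent test of it.

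Each of the 6 calls was lost when any 1 library was left out, where limma had 1 residual degree of freedom left instead of 2, although each of the 6 kept a positive change. The same loss befell each of the 29 other genes named here as having risen or fallen, with LOXL2, MSN and CAV1 not counted. No gene of the lists given below passed in these fits. LOXL2 lost its call without shControl replicate 1 (log2 change -2.55) and without shControl replicate 2 (log2 change -2.57). The calls of MSN and CAV1 were not followed through these fits. When low genes were kept in the fit, 16 of those 29 missed the threshold, namely S100A5, ANXA1, ANXA10, AHNAK, MCAM, TLR4, BSG, PLAT, MYL6, RCN3, ILF2, TPM3, COL1A1, MBP, EGFR and EPCAM. With FPKM rescaled over genes outside the mitochondrial genome, 1023 genes rose and 2173 fell over all genes, and 6 S100 genes rose and 1 fell.

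**Figure D2:**
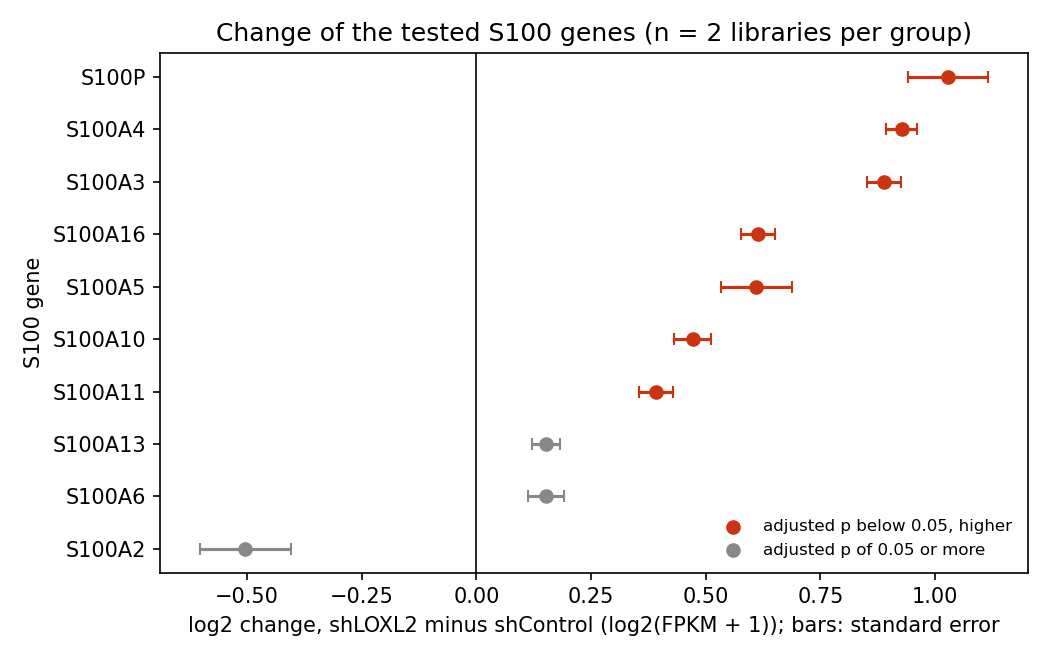
Log2 change of the 9 S100 genes tested and of S100A5, a further family member, shLOXL2 minus shControl on the log2(FPKM + 1) scale, with bars for the standard error (n = 2 libraries per group). Red points passed the threshold and grey points did not, and the changes run from -0.50 for S100A2 to 1.03 for S100P.

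S100P (ENSG00000163993), a family member first found in placenta that binds and activates the membrane linker ezrin, had the largest change of the 10. Its level was 8.18 and 7.84 FPKM in shControl against 18.7 and 16.1 FPKM in shLOXL2. Both shLOXL2 libraries were high, and the groups did not overlap. The mean was 2.17 times the control level, with a log2 change of 1.03 ± 0.087 (SE, n = 2 per group, limma adjusted p = 0.0173). Because the level is low, the change depended on the pseudocount and was 0.78 with 5 FPKM and 1.11 with 0.1 FPKM in place of 1. The rank as largest did not hold with 5 FPKM, where S100A4 was at 0.92. Without shLOXL2 replicate 1, S100P was at 0.929 and S100A4 at 0.938. The ezrin gene EZR stood at 167 and 169 FPKM in shControl against 188 and 201 FPKM in shLOXL2, without passing (limma adjusted p = 0.0672). S100PBP, whose product binds S100P, stood at 32.6 and 33.0 against 25.5 and 29.7 FPKM and did not pass (limma adjusted p = 0.152).

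S100A4 (ENSG00000196154), the metastasis-associated member that binds non-muscle myosin IIA, had the smallest p of the 10. It was at 675 and 657 FPKM in shControl against 1258 and 1277 FPKM in shLOXL2. The replicates of a group lay close together and the groups were far apart, with a mean 1.90 times the control level and a log2 change of 0.93 ± 0.034 (SE, n = 2 per group, limma adjusted p = 0.0115). Its myosin partner MYH9 stood at 311 and 299 FPKM in shControl against 356 and 328 FPKM in shLOXL2, a difference that did not pass (limma adjusted p = 0.147). MYH10, another non-muscle myosin heavy chain, had a negative change that did not pass either (log2 -0.81, limma adjusted p = 0.0668).

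S100A3 (ENSG00000188015), a cysteine-rich member known from the hair cuticle, was at 21.6 and 20.9 FPKM in shControl against 40.5 and 39.8 FPKM in shLOXL2. Its log2 change of 0.89 ± 0.037 (SE, n = 2 per group, limma adjusted p = 0.0116) was close to that of its neighbour S100A4, and the groups did not overlap. S100A5, also in the cluster and not among the 10 genes, was at 4.72 and 4.30 FPKM in shControl against 7.74 and 7.08 FPKM in shLOXL2 (log2 change 0.61 ± 0.078, SE, n = 2 per group, limma adjusted p = 0.0286). The annotated span of S100A5 overlaps that of S100A4 by 65 bases in RefSeq, so reads of the overlap could count for either gene. RefSeq also places the long non-coding RNA gene LOC101928034 over the whole of S100A3 and over 65 bases of S100A4. Another such gene, LOC124904423, lies over the whole of S100A6 and over 529 bases of S100A5. The value of S100A5 is therefore uncertain. Those of S100A3, S100A6 and, for the overlapped bases, S100A4 carry the same doubt.

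S100A2 (ENSG00000196754), a nuclear member that binds p53 and is often lost in breast tumours, was the exception in sign. It stood at 117 and 99.3 FPKM in shControl against 77.8 and 74.0 FPKM in shLOXL2. Both shLOXL2 libraries were lower, and the shControl libraries differed more from each other, relative to their level, than for the other abundant S100 genes. The mean was 0.70 of the control level, with a log2 change of -0.50 ± 0.0995 (SE, n = 2 per group) that did not pass (limma adjusted p = 0.0563). Without shControl replicate 1 the change was -0.38, and without shControl replicate 2 it was -0.62. It passed when protein-coding genes were fitted alone (limma adjusted p = 0.00462) and under 4 other settings, with adjusted p between 0.0357 and 0.0494. Set against its neighbours within a library, the ratio of S100A3 to S100A2 in FPKM was 0.184 and 0.210 in shControl and 0.520 and 0.537 in shLOXL2. The ratio of S100A4 to S100A2 was 5.75 and 6.62 in shControl and 16.2 and 17.3 in shLOXL2.

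S100A16 (ENSG00000188643), a widely expressed member with weak calcium binding in its N-terminal EF-hand, was at 191 and 198 FPKM in shControl against 293 and 302 FPKM in shLOXL2. The groups did not overlap, with a log2 difference of 0.61 ± 0.037 (SE, n = 2 per group, limma adjusted p = 0.0131). S100A14 (ENSG00000189334), its neighbour and an epithelial member, was at 0.111 and 0.196 FPKM in shControl against 0.299 and 0.111 FPKM in shLOXL2. The groups overlapped, and its mean was below the filter of 1 FPKM. S100A14 is thus the 1 of 10 that was not tested.

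S100A10 (ENSG00000197747) and S100A11 (ENSG00000163191) are the annexin partners of the family. S100A10, called p11, cannot bind calcium and forms a tetramer with annexin A2 that holds plasminogen at the cell surface. It was at 411 FPKM in both shControl libraries and at 555 and 586 FPKM in shLOXL2 (log2 change 0.47 ± 0.040, SE, n = 2 per group, limma adjusted p = 0.0175). S100A11, which binds annexin A1, was at 539 and 564 FPKM in shControl against 722 and 725 FPKM in shLOXL2 (log2 change 0.39 ± 0.0375, SE, n = 2 per group, limma adjusted p = 0.0198). For both genes the groups did not overlap. S100A11 missed the threshold when low genes were kept in the fit (limma adjusted p = 0.0502).

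Of the partner genes, ANXA1 rose and ANXA2 did not pass. ANXA2 stood at 688 and 692 FPKM in shControl against 740 and 824 FPKM in shLOXL2 and did not pass (log2 change 0.18 ± 0.066, SE, n = 2 per group, limma adjusted p = 0.162). Its change was 0.090 with quantile normalization, 0.10 with rescaling and 0.0999 without shLOXL2 replicate 2, and it passed with protein-coding genes fitted alone (limma adjusted p = 0.0470). The ratio of S100A10 to ANXA2 in FPKM was 0.597 and 0.594 in shControl and 0.751 and 0.711 in shLOXL2. ANXA1 rose from 429 and 438 FPKM to 528 and 556 FPKM (log2 change 0.32 ± 0.041, SE, n = 2 per group, limma adjusted p = 0.0286). The ratio of S100A11 to ANXA1 was 1.26 and 1.29 in shControl and 1.37 and 1.30 in shLOXL2. Whether an S100 gene changed more than its partner was not tested.

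S100A6 (ENSG00000197956) and S100A13 (ENSG00000189171) had the smallest differences of the 9 genes tested. S100A6, calcyclin, is linked to proliferation and stress responses, and stood at 6503 and 6571 FPKM in shControl against 7252 and 7274 FPKM in shLOXL2. The groups did not overlap, but the log2 change of 0.15 ± 0.0385 (SE, n = 2 per group) did not pass (limma adjusted p = 0.0858), and it was -0.033 with quantile normalization. CACYBP, the calcyclin-binding protein gene, stood at 466 and 476 FPKM in shControl against 393 and 417 FPKM in shLOXL2, without passing (limma adjusted p = 0.0595). S100A13, which takes part in the copper-dependent release of FGF1 and IL1A, stood at 197 and 194 FPKM against 216 and 218 FPKM (log2 change 0.15 ± 0.030, SE, n = 2 per group, limma adjusted p = 0.0548). S100A1 and CHTOP overlap S100A13 in the annotation, and no source used here says that the counting used strand, so reads of the overlap could count for either gene. S100A6 and S100A13 passed when protein-coding genes were fitted alone, with limma adjusted p of 0.0218 and 0.0222. With rescaling outside the mitochondrial genome their changes were 0.076 and 0.077, with limma adjusted p of 0.218 and 0.179.

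The other S100 genes had low or 0 values in the table. Of the 11 other S100 genes, S100A5 alone reached a mean of 1 FPKM, and 6 were listed at 0 in all 4 libraries, among them S100A8, S100A9 and S100A12, the calgranulins of myeloid cells, and S100A7, psoriasin. Such a 0 need not mean absence, given the 0 of EEF1A1. S100A1 stood at 0.646 and 0.451 FPKM in shControl against 0.331 and 0.348 FPKM in shLOXL2, and S100B, the glial member, was at most 0.0257 FPKM in any library. None of the 7 fused-type S100 genes, which encode barrier proteins of the epidermis such as filaggrin (FLG), reached a mean of 1 FPKM.

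Along chromosome 1 the changes did not follow position in a single direction. Between S100A10 and ILF2, RefSeq orders 66 protein-coding genes, of which 12 reached a mean of 1 FPKM, 9 of them S100 genes. In that order, S100A6 had a log2 change of 0.15, S100A5 of 0.61, S100A4 of 0.93, S100A3 of 0.89, S100A2 of -0.50 and S100A16 of 0.61. Of the genes of other families at the far end, SNAPIN rose (log2 0.38, limma adjusted p = 0.0216), ILF2 fell (log2 -0.23, limma adjusted p = 0.0350) and CHTOP did not pass (log2 -0.14, limma adjusted p = 0.0704). Over 18 tested genes of other families in or beside the cluster, 2 rose and 3 fell, against 8.35% and 8.54% of all genes tested, with a median log2 change of 0.012. Besides SNAPIN and ILF2 these were TPM3, a tropomyosin gene (log2 0.22), the zinc transporter gene SLC39A1 (log2 -0.51) and the endosomal sorting gene SNX27 (log2 -0.69).

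**Figure D3:**
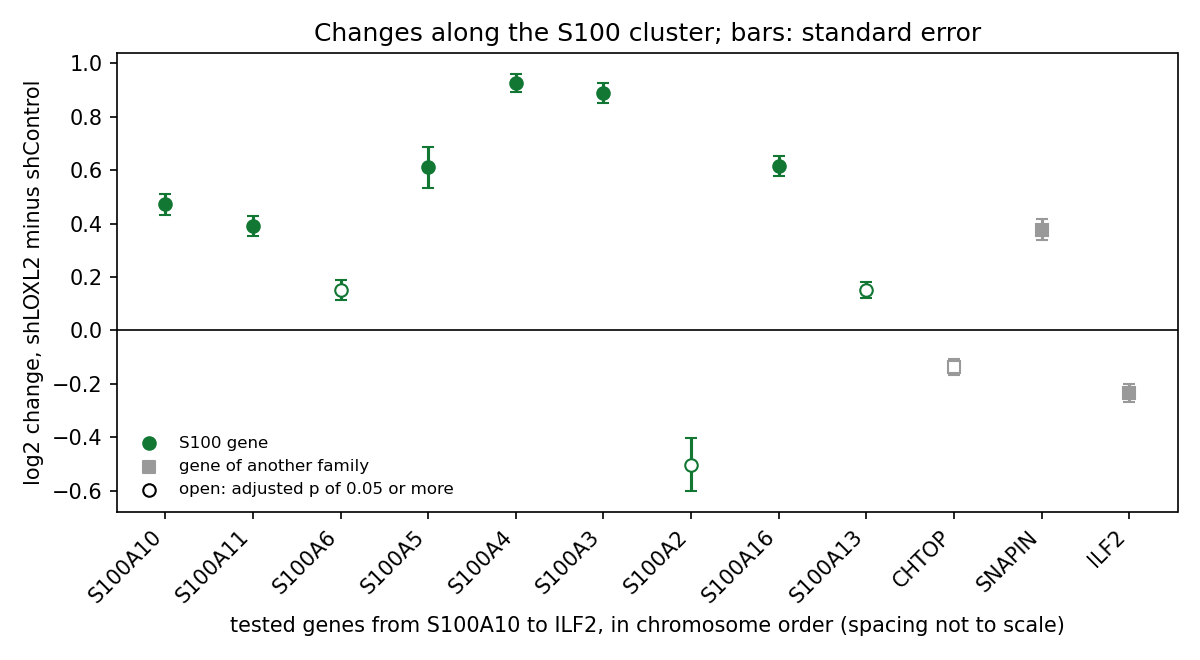
Log2 change (shLOXL2 minus shControl, bars for the standard error, n = 2 libraries per group) of the 12 tested genes from S100A10 to ILF2 in chromosome order, with spacing not to scale. Green circles are S100 genes, grey squares are genes of other families and open symbols did not pass; S100A2 at -0.50 lies between S100A3 at 0.89 and S100A16 at 0.61.

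The annexins, calcium-dependent membrane binders that S100 dimers bridge, had 6 genes that rose and 1 that fell of 9 tested, with a median log2 change of 0.27, where 8.35% of all genes tested rose and 8.54% fell. Only 3 rose when low genes were kept in the fit or the variance prior had no trend. ANXA4 rose from 34.1 and 34.6 FPKM to 60.6 and 61.3 FPKM (log2 0.81, limma adjusted p = 0.0116), ANXA11 had a log2 change of 0.69 (limma adjusted p = 0.0135) and ANXA3 one of 0.59 (limma adjusted p = 0.0200). ANXA10, named after its values were seen as the 1 that fell, went from 3.63 and 3.85 to 0.717 and 1.20 FPKM (limma adjusted p = 0.0294). Its log2 change was -1.29, and pseudocounts of 5 and 0.1 FPKM gave -0.55 and -1.90.

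Of 17 genes of intracellular S100 partners, 3 rose and 0 fell, against 8.35% and 8.54% of all genes tested, with a median log2 change of 0.15. With protein-coding genes alone 8 rose and 4 fell, 3 fell at a filter of 5 FPKM and 2 with rescaling. AHNAK, the giant scaffold that binds the tetramer of S100A10 and annexin A2, rose from 112 and 106 FPKM to 198 and 169 FPKM (log2 0.74, limma adjusted p = 0.0286). Its relative AHNAK2 rose from 7.34 and 6.64 FPKM to 33.3 and 29.0 FPKM (log2 2.01, limma adjusted p = 0.0124). IQGAP1, a scaffold that binds S100P, rose from 129 and 126 FPKM to 186 and 180 FPKM (log2 0.52, limma adjusted p = 0.0136).

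Of 6 tested genes for receptors of released S100 proteins, 1 rose and 3 fell, against 8.35% and 8.54% of all genes tested. The adhesion genes MCAM and ALCAM fell, with log2 changes of -0.53 (limma adjusted p = 0.0303) and -0.45 (limma adjusted p = 0.0147), as did TLR4 (log2 -0.29, limma adjusted p = 0.0348). BSG, the basigin gene, rose (log2 0.20, limma adjusted p = 0.0334), a call that was lost with rescaling at a log2 change of 0.13 (limma adjusted p = 0.0676). AGER, which encodes the receptor RAGE, stood at 2.06 and 1.85 FPKM in shControl against 2.45 and 1.72 FPKM in shLOXL2, and the groups overlapped.

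In the plasminogen system, on which the S100A10 tetramer acts, 0 genes rose and 1 fell of the 6 tested here, with 3 of 6 changes negative, where 8.35% of all genes tested rose and 8.54% fell. PLAT, the tissue plasminogen activator gene, fell from 168 and 156 FPKM to 128 and 134 FPKM (log2 -0.30, limma adjusted p = 0.0495). PLAU, the urokinase gene, stood at 336 and 321 FPKM against 394 and 430 FPKM and did not pass (limma adjusted p = 0.0506). PLAU passed as higher under 5 other settings, among them protein-coding genes alone (limma adjusted p = 0.00495), where 2 genes of the list rose and 2 fell.

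EF-hand proteins outside the family had 10 genes that rose and 2 that fell of 32 tested, against 8.35% and 8.54% of all genes tested, with a median log2 change of 0.16. The count that rose was 4 when low genes were kept in the fit, and 15 rose and 4 fell with protein-coding genes alone. HPCAL1, a neuronal calcium sensor family gene, had a log2 change of 0.63 (limma adjusted p = 0.0124), CAPN2, the calpain 2 catalytic subunit gene, of 0.62 (limma adjusted p = 0.0131) and MYL6, a myosin light chain gene, of 0.51 (limma adjusted p = 0.0173). The 2 that fell were NUCB2 (log2 -0.33, limma adjusted p = 0.0198) and RCN3 (log2 -1.53, limma adjusted p = 0.0477), named after their values were seen. With a pseudocount of 5 FPKM the change of RCN3 was -0.71 and its call was lost (limma adjusted p = 0.0623).

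**Figure D4:**
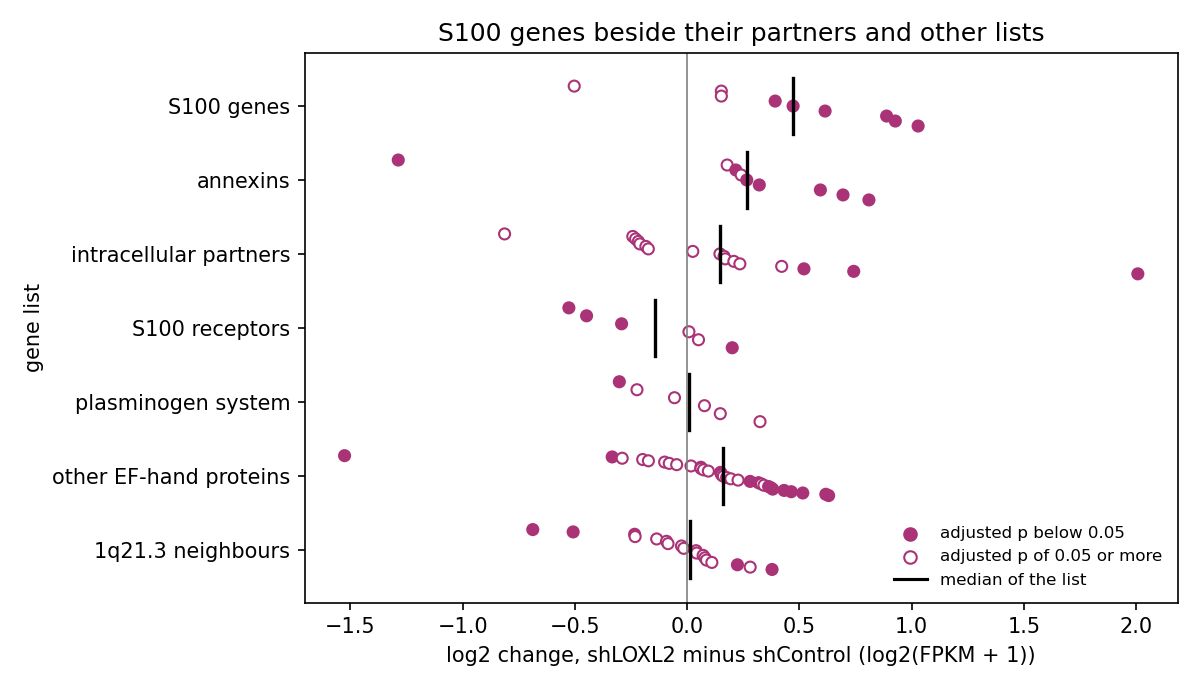
Log2 change (shLOXL2 minus shControl, log2(FPKM + 1) scale) of every tested gene in 7 lists, with filled points past the threshold, open points not past it and a black line at each median. The S100 genes have a median of 0.47, the annexins of 0.27 and the genes of other families at 1q21.3 of 0.012.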

How the data were processed

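RNA-seq values of 2 shControl and 2 shLOXL2 libraries were used. The authors deposited 1 table in FPKM with 1 column per library. The submitters' processing notes list Bowtie, Cufflinks and the build GRCh37 but give no version or role, and the annotation and strand setting are not given in the sources used here. FPKM keeps no read count, so depth and counting error are unknown. Peak lists of the series were not used here, because no GRCh37 annotation was at hand to place the genes, and the planned look at peaks was not run. Symbols were matched for 39694 of 63657 identifiers.

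Values were tested as log2(FPKM + 1) after a filter of a mean of at least 1 FPKM, with limma's trend, in all 4 libraries. This scale understates changes of low genes. The 10 genes and all lists were chosen with earlier results of these data known. From the lists, genes were named that passed with an absolute log2 change of at least 0.5 and a higher group of at least 5 FPKM, together with known partners of the 10 genes, and named exceptions. A gene was left out of the lists and is not reported here. Alternatives covered pseudocount, filter, scaling, variance prior, gene class, a replicate block and each library left out. The software was limma 3.58.1 in R 4.3.3, and pandas 2.3.3, numpy 2.4.6 and matplotlib 3.10.9 in Python 3.11.15.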

Additional observations from a re-analysis of the deposited data

How the results depend on the processing

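The S100 genes that rose numbered 6 with either other pseudocount, a filter of 5 FPKM, quantile normalization, rescaling outside the mitochondrial genome, and a prior without trend or robust. They numbered 5 without a filter on low values and 8 with protein-coding genes alone. With 1 library left out the count was 0 in each fit, with unadjusted p below 0.05 for 7 to 8 of 9 S100 genes and 23.1 to 30.4% of all genes. S100 genes that fell numbered 1, S100A2, with a pseudocount of 0.1 FPKM, a filter of 5 FPKM, the rescaling, a robust prior or protein-coding genes alone, and 0 in each fit with 1 library left out. S100A6 changed sign with quantile normalization, at -0.033, and AGER, with no call, ran from -0.12 to 0.22 with 1 library left out; the cause was not tested. Of the 29 other named calls, with LOXL2, MSN and CAV1 not counted, a prior without trend lost 9 (ANXA1, TLR4, BSG, PLAT, RCN3, ILF2, TPM3, EGFR and EPCAM). Rescaling lost 2 (BSG and TPM3), a pseudocount of 5 FPKM 3 (PLAT, RCN3 and EGFR) and quantile normalization 3 (BSG, EGFR and EPCAM). A filter of 5 FPKM lost 1 (EPCAM) and left 26, as ANXA10 and RCN3 lay below that filter and were not fitted.

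Over all genes, 601 rose and 542 fell without a filter, 926 rose with a prior without trend, and 2136 rose and 2178 fell among protein-coding genes fitted alone. Without 1 library, 18 to 220 rose and 70 to 217 fell, the ends being without shControl replicate 1, without shLOXL2 replicate 1, without shLOXL2 replicate 2 and without shControl replicate 2. Rescaling moved the share of calls that were higher from 49.5 to 32.0%. With the replicate number as a block, 0 genes rose and 0 fell, S100 genes included, in limma. This block fit had 1 residual degree of freedom left instead of 2, like the fits with 1 library left out. In it 5519 genes (32.5%) were at an unadjusted limma p below 0.05, among them 9 S100 genes. Differences between replicates 1 and 2 of the groups correlated at -0.0013 over 16987 genes, so the numbers are not shown to pair libraries. The unknown depth limits the low genes, S100A14 and S100A5 among them.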
